A study of Mus musculus with 6 samples.

Results

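Nuclear genes for mitochondrial protein import and for the folds of the inner membrane were examined in 6 liver RNA-seq libraries, 3 from the HFD group and 3 from the HFD+allantoin group. The genes were the protein-coding members of the Timm, Tomm, Chchd and Micos families, found by symbol in GENCODE M21, together with Immt, Apoo, Apool, Samm50, Pam16, Dnajc19, Grpel1 and Hspa9. This gave 41 of the 54532 genes listed by Ensembl identifier, and 38 of the 41 passed the filter on low counts, as did 12795 genes in all. Both groups were WT male C57BL/6J mice on a high-fat diet (HFD), which began at 8 weeks of age and ran for 4 weeks and then for another 4 weeks. The HFD+allantoin group also drank allantoin, an oxidation product of uric acid, during the last 4 weeks. The labels mention 0.06 and 0.3 mg/mL without tying a dose to a library. By the study's description of its comparisons, though not its methods, the sequenced group drank the higher dose. No chow-fed library was part of the series, so each comparison is between livers that share the high-fat diet. The labels give each library its own number but name no mouse, so p-values measure the spread between these libraries.

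Most mitochondrial proteins are made in the cytosol and enter through the TOM complex of the outer membrane. From there the small TIM chaperones, the TIM22 and TIM23 complexes of the inner membrane, the matrix import motor and the SAM complex pass them to their places. The MICOS complex holds the junctions at which the inner membrane folds into cristae, and proteins of the CHCHD family carry a paired cysteine motif and reside mostly between both membranes. In liver, these routes serve hepatocytes that are dense in mitochondria.

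The libraries held 11326372 to 14601457 counts. Expression is given in CPM, counts scaled to the TMM-normalized library size in edgeR, and fold changes are HFD+allantoin over HFD. TMM factors were 0.756 to 0.951 in HFD and 1.12 to 1.19 in HFD+allantoin libraries. Protein-coding genes of the mitochondrial chromosome took 17.1% to 35.5% of the counts in HFD and 6.68% to 11.1% in HFD+allantoin libraries. The defining hepatocyte markers were present in every library, with a summed level of 91527 to 92441 CPM over 7 genes in HFD and 75155 to 105050 CPM in HFD+allantoin. That sum is mostly Alb, and 2 of the 7 were called higher (Apob, 0.92, and Cps1, 1.05, on the log2 scale) and 2 lower (Apoa1, -1.23, and Ttr, -0.79). Of 8 stellate cell markers, 6 were called higher, and their sum was 143 to 215 CPM in HFD and 358 to 410 CPM in HFD+allantoin. For macrophage markers, 3 of 8 were called higher, with sums of 110 to 262 CPM and 305 to 343 CPM, and none of the hepatocyte, stellate or macrophage markers was at 0 in all libraries. HFD replicate 2 stood apart in fat tissue markers, with 520 counts of Adipoq, 498 of Plin1, 115 of Lep and 26 of Ucp1, each at 0 or 1 in the other libraries, and with 2593 counts of Fabp4 against 34 to 146. The 5 adipocyte markers summed to 23.3 to 460 CPM in HFD and 13.7 to 52.4 CPM in HFD+allantoin libraries, with HFD replicate 2 highest, and only Fabp4 and Cidec passed the filter for testing. HFD replicate 3 stood apart in other markers. It had 521 counts of the bile duct (cholangiocyte) marker Sox9, against 31 to 119 in the other libraries. Its 1863 counts of the haemoglobin gene Hba-a1 compared with 5040 to 6312 in the others. The part of these shifts in the results below was not tested, and in whole tissue fewer cells of a type and less RNA per cell cannot be told apart.

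Import and cristae genes moved in both directions between the groups. With p-values adjusted over all tested genes and a threshold of 0.05 (edgeR), 11 of 38 were lower and 3 were higher in HFD+allantoin livers. Among all 12795 tested genes, 24.3% were called, 13.0% lower and 11.3% higher, so the share of these genes called lower (28.9%) was above the background and the share called higher (7.89%) was below it. Groups did not overlap in CPM for 12 genes that were lower and 7 that were higher, against 21.9% and 22.4% of all tested genes (44.3% in either direction). The median log2 fold change of the 38 genes was -0.14, against -0.03 for all tested genes, with 22 genes below 0 and 16 above. Scaling by library size only turned the split to 7 higher and 3 lower and the median to 0.27, while the median of all genes rose by 0.41. That scaling called 3162 of all tested genes higher and 674 lower. Under that scaling the calls of Tomm22, Tomm40, Tomm7, Timm13, Timm10b, Dnajc19, Chchd5 and Chchd7 were lost, and Tomm70a, Timm21, Immt and Chchd6 were called higher. Without HFD+allantoin replicate 4, 5 or 6, the lower calls numbered 4, 4 and 5 and the higher calls 1 each, and the median was -0.24 without HFD replicate 1. Over all tested genes, calls in these 3 fits fell as well, to 700, 564 and 832 lower and 596, 460 and 702 higher. With all 6 libraries they were 1666 lower and 1446 higher. Without HFD replicate 2, the library with the fat tissue markers, 8 genes were lower and 2 higher, the median was -0.05, and the calls of Hspa9, Tomm20, Dnajc19, Timm13 and Chchd5 were lost (adjusted p of 0.0745, 0.10, 0.0860, 0.0811 and 0.0837). Over all tested genes that fit called 1642 lower and 1292 higher. The summed level of all 41 genes was 2011, 2269 and 2358 CPM in HFD and 2180, 2169 and 2048 CPM in HFD+allantoin libraries, so that the totals overlapped while single genes changed. Much of this sum came from Chchd2, Chchd10, Hspa9 and Tomm70a. Without them it was 931, 1137 and 1091 CPM in HFD and 996, 975 and 981 CPM in HFD+allantoin libraries, which overlapped as well. Within each complex with a call, except for the small TIM chaperones and the other CHCHD genes, called genes pointed both ways.

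**Figure D1:**
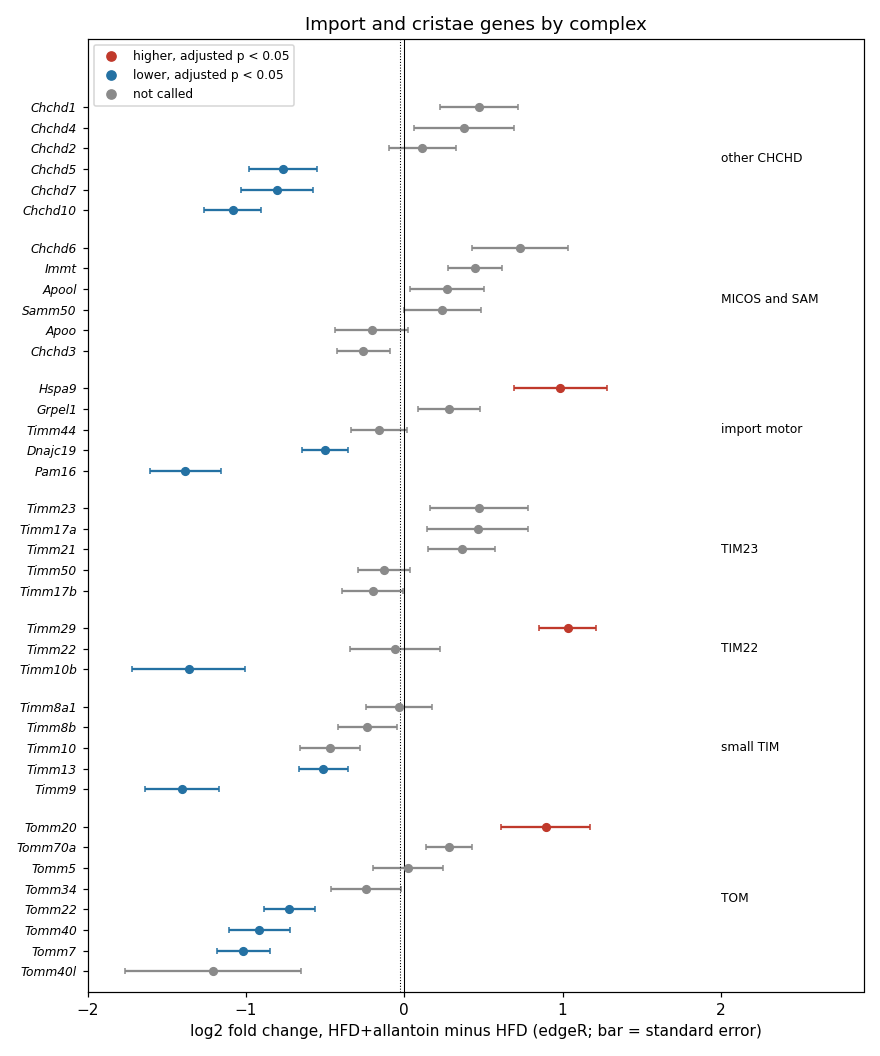
Log2 fold change (HFD+allantoin minus HFD, horizontal axis) of the 38 tested genes, grouped by complex, with the standard error as bar and the median of all tested genes as a dotted line. The 3 genes called higher are Tomm20, Hspa9 and Timm29, and the 11 called lower reach from -0.50 to -1.40. None of the genes placed here under TIM23 or under MICOS and SAM was called. Outside the symbol rule and not shown, the MICOS gene Minos1 was called lower (-1.04) and 2410015M20Rik was not called. Partners outside the rule, Romo1 and Mtx1 among them, had 8 higher and 6 lower calls and are not shown either.

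Promoter sequences are shown for 4 called genes, 1 that rose and 2 that fell with the same ETS letters, and Tomm20, which rose, with an NRF1 match. RefSeq promoter windows (GRCm38.p6) were matched for 35 of the 41 genes, giving 38 windows of 250 bases before a start site. The letters CCGGAAG, a match for ETS factors such as GABPA on either strand, stood in 13 of the 38 windows (34.2%), in 6.91% of all 32851 windows and in 13.0% of the windows of tested genes. Of the 12 genes concerned, Chchd5 and Tomm22 were called lower, Timm29 was called higher, and the rest were not called or not tested. The palindromic NRF1 motif stood in 3 windows (7.89%), against 3.74% of all windows and 7.75% of those of tested genes. These were the windows of Tomm20, called higher, Pam16, called lower, and Chchd4, not called. Capitals mark these matches in the windows of Timm29 (chr9:21592472-21592721, plus strand), Tomm20 (chr8:126945922-126946171, minus strand), Tomm22 (chr15:79670618-79670867, plus strand) and Chchd5 (chr2:129129450-129129699, plus strand).
Timm29: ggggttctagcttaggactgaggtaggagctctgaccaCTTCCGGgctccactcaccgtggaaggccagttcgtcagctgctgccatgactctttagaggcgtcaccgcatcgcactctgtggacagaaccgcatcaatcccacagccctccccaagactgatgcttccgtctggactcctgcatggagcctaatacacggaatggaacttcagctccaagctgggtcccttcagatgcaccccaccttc
Tomm20: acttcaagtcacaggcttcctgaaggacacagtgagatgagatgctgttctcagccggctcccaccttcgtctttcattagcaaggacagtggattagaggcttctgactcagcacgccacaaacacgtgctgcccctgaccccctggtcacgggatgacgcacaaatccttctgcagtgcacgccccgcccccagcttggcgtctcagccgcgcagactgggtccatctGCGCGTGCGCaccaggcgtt
Tomm22: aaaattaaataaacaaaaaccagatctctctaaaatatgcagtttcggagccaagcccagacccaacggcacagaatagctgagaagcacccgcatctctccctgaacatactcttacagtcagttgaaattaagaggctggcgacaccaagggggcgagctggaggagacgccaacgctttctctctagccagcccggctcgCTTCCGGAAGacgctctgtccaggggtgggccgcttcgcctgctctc
Chchd5: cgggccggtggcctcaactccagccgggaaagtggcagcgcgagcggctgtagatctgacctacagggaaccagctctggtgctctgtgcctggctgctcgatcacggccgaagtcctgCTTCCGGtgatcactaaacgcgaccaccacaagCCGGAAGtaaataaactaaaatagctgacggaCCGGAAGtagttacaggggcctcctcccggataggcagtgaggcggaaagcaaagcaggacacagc
The windows of Timm29, which rose, and Tomm22, which fell, both hold the ETS letters, and in Tomm22 matches on both strands overlap in a window whose last 7 bases lie in the gene as GENCODE places it. Other letters searched on both strands were CACGTG (E-box, 13.2% of the windows against 6.02% of all and 8.22% of those of tested genes), TNAAGGTCA (ERR, 2.63% against 1.14% and 0.767%) and GCATGCGC (a shorter form that can overlap the NRF1 motif, 5.26% against 2.26% and 4.14%). GGGCGG (SP1) stood in 44.7% of the windows, above the share of all windows (32.7%) and below that of tested genes (55.3%). The letters TGACGTCA (CRE) and AAGATGGC (YY1) and the direct-repeat PPAR element were in 0 of the 38 windows and in 1.55%, 1.56% and 0.0335% of all windows and 2.40%, 1.95% and 0.0323% of those of tested genes. The median GC content was 57.0% in these windows, 52.4% in all windows and 59.2% in those of tested genes.

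The TOM complex, the entry gate, had the most members and calls in both directions, with 1 higher, 3 lower and 4 not called among 8 tested. Tomm20 (ENSMUSG00000093904, chromosome 8, 126930667 to 126945844), the receptor for presequences, had 16.0, 26.0 and 38.7 CPM in HFD and 54.2, 50.5 and 45.5 CPM in HFD+allantoin libraries. All 3 treated libraries were above every HFD library, and the HFD values were spread widely, with replicate 1 lowest. The mean rose from 26.9 ± 11.4 to 50.1 ± 4.39 CPM (SD, n = 3 each), 1.86-fold, or 0.89 on the log2 scale (standard error 0.28, adjusted p = 0.0481). This call was lost without HFD replicate 1 or 2 or without any of the HFD+allantoin libraries (log2 fold change 0.63 to 0.96, adjusted p of 0.0684 to 0.136), and after correction for transcript length and GC content (0.70, adjusted p = 0.0911). Tomm20 has 4 near-identical pseudogenes, of which Gm14494, with up to 109 counts, was at 0.76 on the log2 scale.

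Tomm22, the central receptor that organizes the complex, moved the other way. It had 41.4, 50.2 and 53.2 CPM in HFD and 28.4, 30.8 and 28.2 CPM in HFD+allantoin libraries, with no overlap (log2 fold change -0.73, standard error 0.16, adjusted p = 0.0136). Tomm40, the channel itself, fell from 53.2, 41.4 and 44.4 CPM to 20.0, 24.0 and 29.7 CPM (log2 fold change -0.91, standard error 0.19, adjusted p = 0.0115). Tomm7, a small subunit that tunes the assembly of the channel, had 27.2, 35.7 and 34.4 CPM in HFD and 15.9, 15.7 and 16.5 CPM in HFD+allantoin libraries. The treated values of Tomm7 lay within 1 CPM of each other and well under the HFD values (log2 fold change -1.02, standard error 0.17, adjusted p = 0.00512). The Tomm22 call was lost without any HFD+allantoin library (adjusted p of 0.0591 to 0.0697) and the Tomm40 call without HFD+allantoin replicate 4 or 5 (0.0615 and 0.0619), with log2 fold changes from -0.70 to -0.89. With library-size scaling these calls and that of Tomm7 were lost too, at -0.32 for Tomm22 (adjusted p = 0.283), -0.49 for Tomm40 (0.0818) and -0.62 for Tomm7 (0.0566). Tomm40 overlaps an antisense gene by 258 exonic bases, and the sources used here do not state whether strand was used in counting.

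Tomm70a, the receptor for carrier precursors, had 114, 118 and 124 CPM in HFD and 141, 142 and 151 CPM in HFD+allantoin libraries. The groups did not overlap, but the log2 fold change of 0.28 was not called (adjusted p = 0.180), whereas library-size scaling gave 0.69 and a call (adjusted p = 0.0283). Tomm5 (0.02) and the cytosolic cochaperone Tomm34 (-0.24) were not called either, and Tomm40l, a paralog of the channel, was at -1.21 with a wide error (standard error 0.56, adjusted p = 0.142). Without HFD replicate 3, which held 2.26 CPM against 12.3 and 8.39 CPM in the other HFD libraries, Tomm40l was at -1.65 and called (adjusted p = 0.0108). Tomm40l shares 3304 exonic bases with Nr1i3 on the opposite strand, so that its counts are uncertain. Tomm20l and Tomm6 stayed at or under 3 counts in every library and gave no fold. Tomm6 shares 859 exonic bases on the same strand with Gm21981, which had at most 1 count, so a low Tomm6 count cannot be read as low expression.

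The small TIM chaperones, which guide hydrophobic precursors across the intermembrane space, had log2 fold changes from -1.40 to -0.03, and the 2 called among 5 tested were both lower. All 5 lay below 0, although Timm8a1 and Timm8b moved above 0 with library-size scaling or after correction for length and GC. Timm9 (ENSMUSG00000021079, chromosome 12, 71123173 to 71136684) had 61.2, 39.1 and 33.9 CPM in HFD and 16.7, 15.9 and 18.1 CPM in HFD+allantoin libraries. It was 2.65-fold lower (log2 fold change -1.40, standard error 0.23, adjusted p = 0.00523), the most negative value among the called genes. Timm10, the partner of Timm9 in a hexamer, had 13.5, 16.6 and 19.0 CPM in HFD and 11.8, 11.7 and 11.9 CPM in HFD+allantoin libraries. These groups did not overlap either, but the change of -0.47 was not called (adjusted p = 0.0980). Without HFD replicate 1, Timm10 was at -0.59 and called (adjusted p = 0.0425). Timm13, which pairs with the Timm8 proteins, fell from 59.2 ± 1.66 to 41.5 ± 4.59 CPM (SD, n = 3 each), with values of 57.4, 60.7 and 59.4 against 44.2, 44.2 and 36.2 CPM (log2 fold change -0.51, adjusted p = 0.0412). The Timm13 call was lost in every fit that left out a library other than HFD replicate 1 (-0.42 to -0.55, adjusted p of 0.0536 to 0.157), and its log2 fold change was -0.11 after correction for length and GC. It was also lost with library-size scaling (-0.094, adjusted p = 0.751) and without a filter (-0.47, adjusted p = 0.126). Timm8a2 had 0 counts in all 6 libraries.

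In the TIM22 complex, which inserts carrier proteins into the inner membrane, 1 of 3 genes rose, 1 fell and the channel gene was not called. Timm29 (ENSMUSG00000048429, chromosome 9, 21592722 to 21595970), a stabilizing subunit, had 15.9, 18.2 and 23.0 CPM in HFD and 36.4, 38.6 and 41.9 CPM in HFD+allantoin libraries. The groups were far apart, the increase was 2.04-fold (log2 fold change 1.03, standard error 0.18, adjusted p = 0.00618), and the call was kept in 15 of 15 alternatives. Timm10b, the chaperone docked on the same complex, went from 10.5, 5.43 and 5.43 CPM to 2.57, 3.31 and 2.36 CPM (log2 fold change -1.36, standard error 0.35, adjusted p = 0.0246). This was the least expressed of the called genes and rests on 35 to 96 counts per library. Timm10b shares exonic bases with Arfip2 (277) and, on its own strand, with Gm45799 (376), and its call was lost without HFD replicate 1 or any HFD+allantoin library (-0.98 to -1.52, adjusted p of 0.0557 to 0.0915) and with library-size scaling (-0.91, adjusted p = 0.0591). Timm22, the channel, had 7.42, 14.6 and 16.0 CPM in HFD and 11.1, 11.6 and 14.0 CPM in HFD+allantoin libraries, overlapping values that gave -0.06 on the log2 scale (standard error 0.28).

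Of the genes taken by the symbol rule, 5 were placed in the TIM23 complex, the presequence translocase. None of these 5 was called by edgeR with TMM, DESeq2 or limma-voom, 0 had an unadjusted p under 0.05, and the groups overlapped for each. Of all tested genes, 44.3% had groups without overlap, and the share under that unadjusted p was not computed. The channel gene Timm23 had 11.6, 32.0 and 20.0 CPM in HFD and 28.8, 29.6 and 29.8 CPM in HFD+allantoin libraries, which gave 0.47 on the log2 scale (standard error 0.31, adjusted p = 0.290). The treated libraries were close to each other, and HFD replicate 2 lay above them all. Without HFD replicate 2 the value was 0.89 and called (adjusted p = 0.0361). Timm23 has 6 near-identical copies, the highest with 13 counts. With library-size scaling Timm21 was called higher (0.76, adjusted p = 0.0413). With TMM, Timm17a (0.46) and Timm21 (0.36) were above 0, and the receptor Timm50 (-0.13) and Timm17b (-0.20) below.

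The import motor pulls precursors into the matrix, and its subunits moved apart. Hspa9 (ENSMUSG00000024359, chromosome 18, 34937414 to 34954357), the mitochondrial HSP70, had 103, 194 and 260 CPM in HFD and 353, 380 and 369 CPM in HFD+allantoin libraries. The rise from 186 ± 78.8 to 367 ± 13.6 CPM (SD, n = 3 each) was 1.98-fold (log2 fold change 0.99, standard error 0.29, adjusted p = 0.0401), and the treated values were tight while the HFD values spanned 103 to 260 CPM. The call was lost without HFD replicate 2 or any HFD+allantoin library (0.97 to 1.02, adjusted p of 0.0745 to 0.117). Pam16 (ENSMUSG00000014301, chromosome 16, 4616464 to 4624988), which docks and restrains the J protein at the channel, had 39.6, 26.9 and 25.2 CPM in HFD and 13.8, 10.4 and 11.0 CPM in HFD+allantoin libraries. All treated values were under every HFD value (log2 fold change -1.38, standard error 0.22, adjusted p = 0.00494), and the call was kept in 15 of 15 alternatives. Pam16 overlaps Glis2 by 455 exonic bases on the opposite strand. Dnajc19, the J protein that stimulates the HSP70, fell from 48.6, 55.1 and 50.6 CPM to 38.3, 34.8 and 36.1 CPM (log2 fold change -0.50, standard error 0.15, adjusted p = 0.0379). That call was lost without HFD replicate 2 or any HFD+allantoin library (-0.45 to -0.53, adjusted p of 0.0860 to 0.155), with library-size scaling (-0.087, adjusted p = 0.762) and without a filter (-0.46, adjusted p = 0.139). Dnajc19 shares 178 exonic bases with Fxr1 on the opposite strand and has a near-identical copy with up to 53 counts. Grpel1, the nucleotide exchange factor (0.28), and Timm44, the tether (-0.16), had overlapping groups and were not called.

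**Figure D2:**
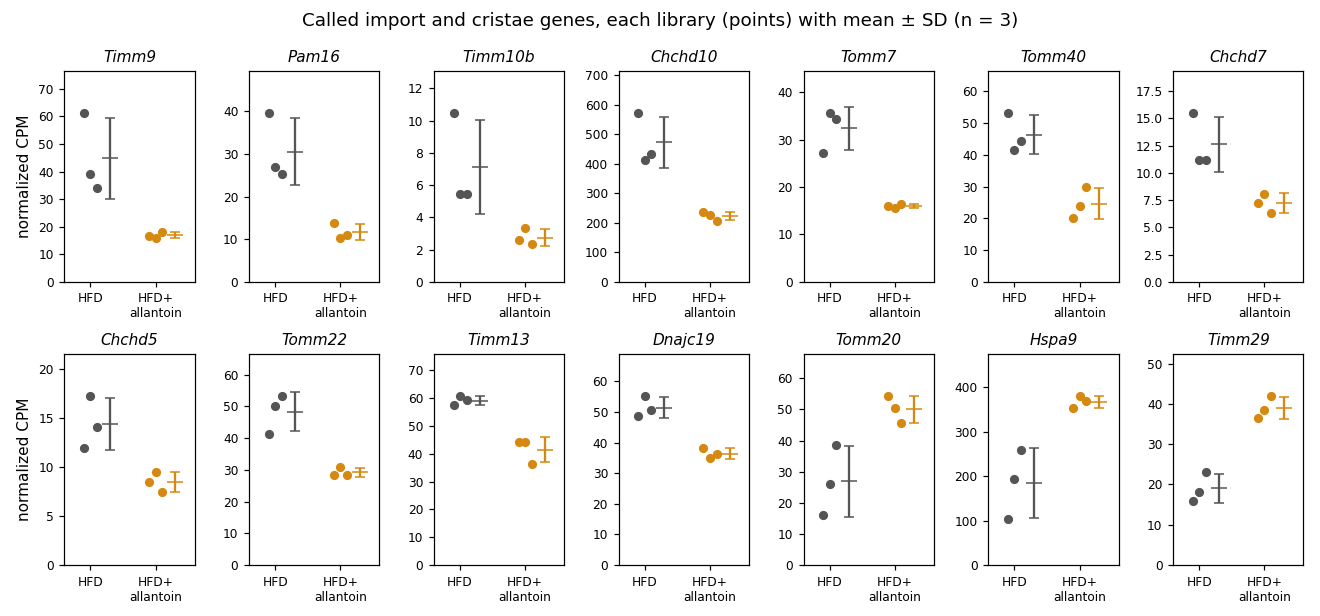
Normalized CPM (vertical axes, each starting at 0) of the 14 called genes in each of 3 HFD (grey) and 3 HFD+allantoin (orange) libraries, with the mean and SD beside the points. In every panel the groups do not overlap, and for Hspa9 and Tomm20 the HFD points spread from 103 to 260 CPM and from 16.0 to 38.7 CPM.

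For the cristae genes, 0 of the 6 tested MICOS and SAM genes was called by edgeR with TMM, DESeq2 or limma-voom, and 2, Immt and Chchd6, had an unadjusted edgeR p under 0.05 and groups without overlap. Groups without overlap were found for 44.3% of all tested genes, and the share under that unadjusted p was not computed. Immt, the large MICOS scaffold also known as mitofilin, had 61.0, 81.7 and 69.3 CPM in HFD and 87.5, 96.4 and 105 CPM in HFD+allantoin libraries. All treated values were higher (log2 fold change 0.45, standard error 0.17, adjusted p = 0.0856). Chchd6, a MICOS subunit in low abundance, had 2.62, 2.57 and 2.26 CPM in HFD and 3.81, 3.96 and 4.59 CPM in HFD+allantoin libraries (0.73, adjusted p = 0.107). With library-size scaling both were called higher, Immt at 0.85 (adjusted p = 0.0199) and Chchd6 at 1.15 (adjusted p = 0.0211). Its close relative Chchd3 was far more abundant, with 94.5, 117 and 124 CPM against 101, 86.1 and 94.3 CPM (-0.26, adjusted p = 0.287). Apoo (-0.20), Apool (0.27) and the SAM channel gene Samm50 (0.24) had overlapping groups. The MICOS subunits MIC10 and MIC13 carry the symbols Minos1 and 2410015M20Rik in GENCODE M21, so that the symbol rule does not take them and no gene matched its Micos part. Minos1, which bends the membrane at the junction, had 113, 106 and 101 CPM in HFD and 54.3, 42.3 and 58.7 CPM in HFD+allantoin libraries (log2 fold change -1.04, standard error 0.17, adjusted p = 0.00531). 2410015M20Rik had overlapping groups, with 13.6, 38.3 and 41.9 CPM against 54.4, 51.1 and 38.3 CPM (0.61, adjusted p = 0.242).

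Of the 6 other CHCHD genes, the 3 that were called were all lower. Chchd10 (ENSMUSG00000049422, chromosome 10, 75933130 to 75937747) had 573, 414 and 434 CPM in HFD and 236, 228 and 207 CPM in HFD+allantoin libraries. The decrease was 2.12-fold (log2 fold change -1.08, standard error 0.18, adjusted p = 0.00531), the groups were well separated, and the call was kept in 15 of 15 alternatives. Its paralog Chchd2 had 290, 405 and 450 CPM in HFD and 455, 444 and 340 CPM in HFD+allantoin libraries, overlapping values at 0.11 (adjusted p = 0.728). Chchd5 fell from 11.9, 17.2 and 14.0 CPM to 8.43, 9.46 and 7.42 CPM (-0.77, adjusted p = 0.0317), and Chchd7 fell from 15.5, 11.2 and 11.2 CPM to 7.26, 8.10 and 6.28 CPM (-0.80, adjusted p = 0.0327). The Chchd5 call was lost without HFD replicate 2 and the Chchd7 call without HFD replicate 1, and both were lost without any HFD+allantoin library (-0.62 to -0.89, adjusted p of 0.0663 to 0.116). With library-size scaling Chchd5 was at -0.36 (adjusted p = 0.299) and Chchd7 at -0.37 (adjusted p = 0.232), and the Chchd5 call was lost after correction for length and GC (-0.52). Chchd4, the oxidoreductase that traps cysteine-rich proteins between the membranes, had 5.46, 5.63 and 11.0 CPM against 9.09, 11.7 and 8.03 CPM (0.38, adjusted p = 0.409). Chchd1, a subunit of the mitochondrial ribosome, had 11.6, 21.0 and 22.3 CPM in HFD and 28.2, 23.1 and 25.2 CPM in HFD+allantoin libraries (0.47, adjusted p = 0.188). After correction for length and GC, Chchd1 was called higher at 0.91 (adjusted p = 0.0216).

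Levels of different genes were compared per kilobase of exon (RPKM on the TMM scale). Chchd10 was the most abundant of these genes in HFD, with a mean level of 301 RPKM, followed by Chchd2 at 168, Timm8b at 73.5, Timm13 at 43.2 and Hspa9 at 43.0 RPKM. In HFD+allantoin libraries the mean level of Chchd2, 182 RPKM, was above that of Chchd10, 142 RPKM, and Hspa9 was at 85.3 RPKM. At the low end of the tested genes in HFD, Chchd6 had a mean level of 0.981 RPKM. In HFD+allantoin libraries Chchd6 was at 1.63 RPKM, and Tomm40l (0.642) and Timm10b (0.767) were lower. Chchd10 and Chchd2 were the most abundant pair. The most abundant pair therefore stood in opposite order in the 2 groups.

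Ratios between related genes within a library do not depend on the scaling of that library, apart from the 2 CPM added to each value. In 8 pairs, 3 log2 ratios had groups without overlap, with a two-sided exact permutation p = 0.10 each, the smallest that 3 against 3 libraries allow, and 0.267 after Benjamini-Hochberg adjustment over the 8 pairs. Groups did not overlap for 44.3% of all single tested genes, and no such share was computed for other gene pairs. The Chchd2 to Chchd10 log2 ratio was -0.98, -0.03 and 0.05 in HFD and 0.94, 0.95 and 0.71 in HFD+allantoin libraries, a difference of 1.19. Chchd3 to Chchd6 went from 4.39, 4.71 and 4.89 to 4.14, 3.89 and 3.87, a difference of -0.69. Apoo to Apool differed by -0.48, with the nearest libraries of the groups both at -0.52. The pairs Timm17a to Timm17b (0.70), Tomm40 to Tomm40l (-0.15), Timm8a1 to Timm8b (0.19), Tomm20 to Tomm70a (0.64) and Grpel1 to Grpel2 (0.63) overlapped.

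A further 6 ratios of partners within a complex were chosen after their values were seen and are given as a description, with no test. Hspa9 to Pam16 was 1.33, 2.77 and 3.26 in HFD and 4.49, 4.95 and 4.84 in HFD+allantoin libraries on the log2 scale, a difference of 2.31. The 3 HFD values themselves spanned 1.33 to 3.26, with replicate 1 lowest. Tomm20 to Tomm22 went from below 0 in every HFD library (-1.27, -0.90 and -0.44) to above 0 in every HFD+allantoin library (0.89, 0.68 and 0.65). The differences were 1.87 for Timm29 to Timm10b, 1.55 for Hspa9 to Dnajc19, 1.47 for Immt to Minos1 and 0.87 for Timm10 to Timm9.

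**Figure D3:**
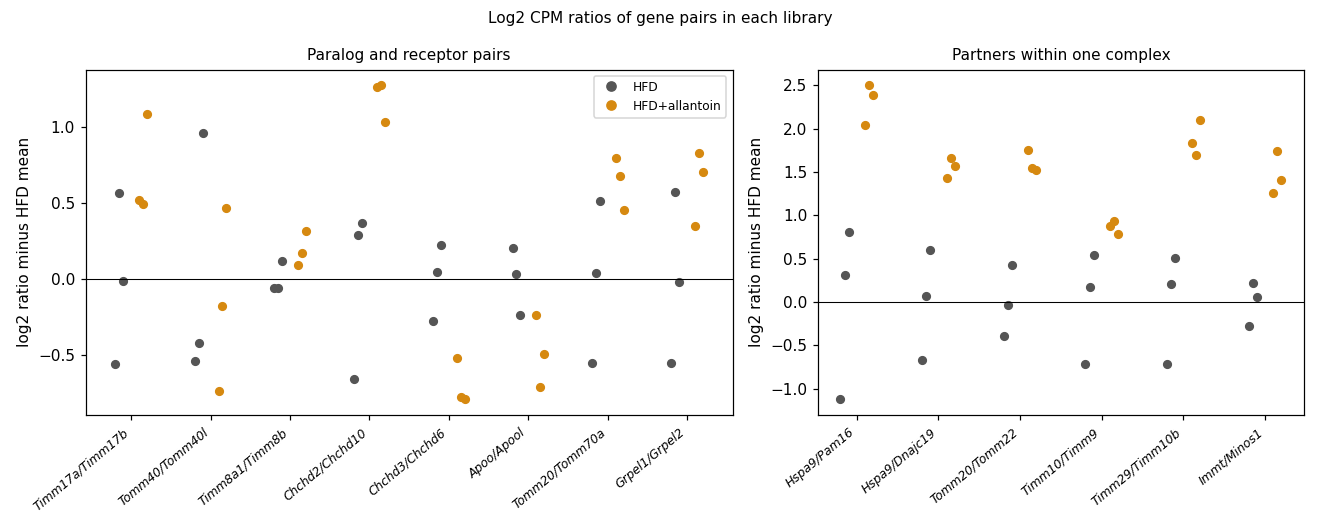
Log2 ratio of 2 genes in each library minus the HFD mean of that ratio (vertical axis), for HFD (grey) and HFD+allantoin (orange) libraries. On the left are the 8 paralog and receptor pairs, of which Chchd2/Chchd10 differs most (1.19), and on the right the 6 ratios picked after seeing the values, up to 2.31 for Hspa9/Pam16.

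These genes varied more between the HFD libraries than between the HFD+allantoin libraries. The median SD of log2 CPM of the 38 genes was 0.27 in HFD and 0.13 in HFD+allantoin. For all tested genes it was larger, 0.35 in HFD and 0.20 in HFD+allantoin, so the wider HFD spread was not limited to these genes. The SD was larger in HFD for 33 of 38 genes (86.8%), against 74.1% of all tested genes. HFD replicate 1 was the lowest of all 6 libraries for 19 of the 38 genes (50.0%, against 26.8% of all genes) and the highest for 8 (21.1%, against 27.5%). The median deviation of the 38 genes from their means over libraries was -0.17, 0.24 and 0.22 on the log2 scale in HFD replicates 1 to 3 and -0.02, -0.04 and -0.08 in HFD+allantoin replicates 4 to 6. HFD replicate 1 thus lay below the HFD+allantoin libraries and the other two HFD libraries above them. This library also had the highest share of counts from the mitochondrial chromosome, 35.5%, and the part of that in these levels was not tested.

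Many of these genes have short transcripts, and fold changes followed transcript length across the whole data set. In the shortest 10% of all genes the median log2 fold change was -0.59, and in the longest 10% it was 0.15. The import and cristae genes did not follow this step by step. The 6 in the shortest 10% had a median of -0.11, and the 9 in the next 10% had -0.51, against -0.19 for all genes there. The median length of the longest transcript was 2411 bases in the 38 genes and 3232 bases in all tested genes. Among the 19 genes at or below 2411 bases, 6 were called lower and 0 higher, with a median of -0.23, and among the 19 longer genes 5 were called lower and 3 higher, with a median of 0.27. The share of all tested genes called on each side of that length was not computed, so these counts have no background beside them. After a correction for length and GC content in each library, 9 genes were lower and 3 higher, and the median was 0.01 in place of -0.14. Over all 12795 tested genes the same correction gave 1551 lower and 1436 higher calls and a median of -0.04. Of the 14 calls, 11 were kept in that fit, and those of Timm13, Tomm20 and Chchd5 were lost.

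**Figure D4:**
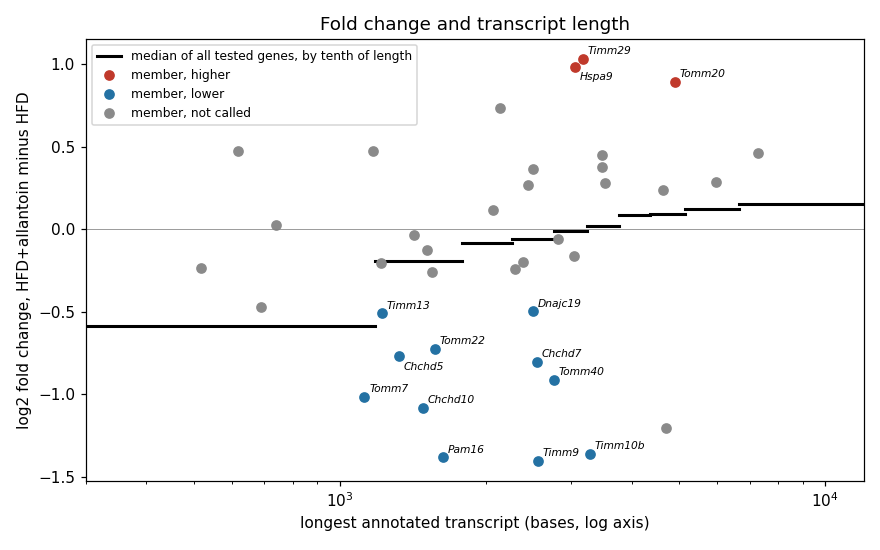
Log2 fold change (HFD+allantoin minus HFD) of the 38 genes against the length of the longest annotated transcript (bases, log axis), with black bars for the median of all tested genes in each 10% of genes by length. The bars run from -0.59 for the shortest to 0.15 for the longest, and the 3 genes called higher are all longer than 2411 bases, whereas genes called lower are found on both sides. The share of all tested genes called at these lengths was not computed.

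Partners of import and cristae upkeep outside the symbol rule formed a list of 43 genes, all tested. Calls were made for 14 of them, 8 higher and 6 lower, at a median of 0.09 on the log2 scale for the 43 genes, against 24.3% of all tested genes called, 11.3% higher and 13.0% lower. Pitrm1, which degrades cleaved presequences, had 10.5, 11.2 and 9.78 CPM in HFD and 25.1, 28.6 and 26.0 CPM in HFD+allantoin libraries (log2 fold change 1.34, standard error 0.16, adjusted p = 0.00292). The other 4 of the 5 smallest p-values in this direction belonged to Xpnpep3 (1.03), which trims imported proteins, the inner membrane protease Yme1l1 (0.85), the fusion and cristae GTPase Opa1 (0.77) and Mtch1 (0.86). Opa1 went from 36.0, 51.6 and 54.3 CPM to 75.9, 81.2 and 84.8 CPM (adjusted p = 0.0199), with all treated libraries above the HFD libraries. The proteases Mipep (0.59), Spg7 (0.50) and Oma1 (0.65) were the remaining higher calls. Among the lower calls, Romo1, a small inner membrane protein, had 87.0, 67.1 and 55.7 CPM in HFD and 27.0, 23.6 and 19.2 CPM in HFD+allantoin libraries (-1.59, adjusted p = 0.00348). Cox19 (-1.45) and Cox17 (-1.80), small cysteine-rich proteins used in cytochrome oxidase assembly, were also lower. So were the matrix protease Clpp (-0.96), the inner membrane peptidase Immp2l (-0.68) and Mtx1 (-0.72), a partner of the SAM complex. Cox17 rests on 57, 36 and 18 counts in HFD and 13, 25 and 11 in HFD+allantoin libraries (standard error 0.56, adjusted p = 0.0454). Its nearest libraries were at 1.50 CPM in HFD and 1.48 CPM in HFD+allantoin. The matrix chaperones Hspd1 (0.53, adjusted p = 0.245) and Hspe1 (-0.27, adjusted p = 0.454), which fold imported proteins after Hspa9, were not called. Without HFD+allantoin replicate 4, 5 or 6 the partner calls numbered 3, 3 and 4 higher and 3, 2 and 3 lower, and without HFD replicate 1 there were 4 higher. Calls over all tested genes were fewer in these fits too.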

How the data were processed

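The authors deposited 1 table of raw read counts per gene for the 6 libraries, not normalized and made from filtered Illumina reads. The submitters' processing notes name GRCm38 (mm10), and the aligner and counting tool are not given in the sources used here. The table listed 54961 entries, of which 429 lacked an Ensembl identifier and were dropped (0.197% to 0.306% of counts). Symbols, positions and lengths came from GENCODE M21. Counts were analysed in edgeR 4.0.16 (R 4.3.3) by a quasi-likelihood fit with group as the only term, after filterByExpr and TMM, and p-values were adjusted over 12795 genes (Benjamini-Hochberg). The procedure was tested on simulated data. Standard errors were derived from the F statistic. Library totals were 11326372 to 14601457 counts, and genes at or under 3 counts in every library were given no fold. Gene members and lists were chosen with earlier results of these data known. Named genes are the called members, a set of core subunits (Minos1 and 2410015M20Rik included), and the called partners with the 5 smallest p-values per direction. Other partners and single members were named after their values were seen. BLAST 2.17.0 listed near-identical copies of members (95% identity or more, 200 bases or more). Of the other marker lists, 1 of 3 tested cholangiocyte markers was lower (Sox9, highest in HFD replicate 3), and 0 of 7 endothelial, 2 adipocyte, 5 erythroid, 2 lymphocyte and 1 muscle and brown fat markers tested were called. Alternative fits used other scaling (RLE, upper quartile or library size alone), DESeq2 1.42.0, limma-voom (limma 3.58.1), a filter of 10 counts in each library or none, 1 library or the mitochondrial chromosome left out, or spline offsets for length and GC (5 degrees of freedom).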

Additional observations from a re-analysis of the deposited data

How the results depend on the processing

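RLE and upper-quartile scaling, the filter of at least 10 counts, DESeq2, limma-voom and leaving out the mitochondrial chromosome each kept all 14 calls among the import and cristae genes, and without any filter 12 of 14 were kept. With library sizes alone as scaling, 3162 genes were higher and 674 lower in all, with 7 import and cristae genes higher and 3 lower, a median of 0.27, and 2 partner genes lower. At an adjusted p under 0.01, 1 import and cristae gene was higher and 4 were lower. The share of all tested genes under 0.01 was not computed, so these counts have no background beside them. Leaving out 1 library gave 460 to 1773 genes higher and 564 to 2008 lower in all, 1 to 3 import and cristae genes higher and 4 to 11 lower, a median of -0.24 to -0.05, and 3 to 10 partner genes higher and 2 to 8 lower. Of 570 gene and setting pairs, 489 kept direction and side of the threshold, 48 lost the call, 9 gained it and 24 changed sign, and none of the 14 called genes changed sign. The sign changes with library-size scaling were Tomm34 (0.18), Timm8a1 (0.36), Timm8b (0.16), Timm22 (0.32), Timm17b (0.21), Timm50 (0.29), Timm44 (0.24), Chchd3 (0.14) and Apoo (0.19), and after correction for length and GC Timm8a1 (0.098), Timm8b (0.28) and Timm50 (0.19). Timm8a1 was at 0.0049 without a filter. In fits without 1 library, sign changes were Tomm5 (-0.17), Samm50 (-0.0051) and Chchd2 (-0.053) without HFD replicate 1, Timm8a1 (0.053), Timm22 (0.054) and Timm44 (0.0084) without HFD replicate 2, Timm8a1 (0.088) and Timm22 (0.15) without HFD replicate 3, Timm8a1 (0.0046) and Timm22 (0.017) without HFD+allantoin replicate 4, and Timm8a1 (0.043) without HFD+allantoin replicate 5. The ranges over the fits without 1 library ran from -0.17 to 0.22 for Tomm5, -0.22 to 0.088 for Timm8a1, -0.33 to 0.15 for Timm22, -0.26 to 0.0084 for Timm44, -0.0051 to 0.40 for Samm50 and -0.053 to 0.25 for Chchd2. The cause was not tested. With a pseudocount of 0.5 and of 5, the difference between the groups was 1.19 and 1.18 for Chchd2/Chchd10, -0.88 and -0.52 for Chchd3/Chchd6 and -0.52 and -0.42 for Apoo/Apool. No paired analysis was possible because the groups share no replicate number. Counts of 24 to 96 per library limit the precision for Chchd6 and Timm10b, as do counts of 11 to 57 for the partner Cox17.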
